A study of Mus musculus with 4 samples.

Results

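The genes described here make, conjugate and move bile acids in the liver, and they comprise 10 of the 18820 genes with a symbol on the array. They are Cyp7a1, Cyp8b1, Cyp27a1, Cyp7b1, Slc27a5, Baat, Abcb11, Slc10a1, Nr1h4 and Nr0b2, chosen by symbol. Each was read by 1 probe set annotated to that symbol only, and 0 of the 10 lay below the level floor of 5.55 on the log2 scale, the median of all genes' mean levels. The 9410 genes at or above that floor are called the genes tested below.

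Mice were infused through a cecum catheter for 6 h, and 4 pools of liver RNA were measured on 1 array each. The acetate pool (sodium [1-13C]acetate) and the propionate pool (sodium [2-13C]propionate) held RNA of 6 mice each, the butyrate pool (sodium [2,4-13C2]butyrate) of 4 mice, and the control pool (phosphate-buffered saline) of 6 mice. The acids were given at 0.3 M, 0.2 ml/h and 2.4 mmol/h/kg. All groups were male C57Bl/6J mice aged 16 to 17 weeks, fed a semi-synthetic diet with palm oil for 6 weeks and kept without food over the early morning before the infusion. Each array averages the mice of its group, so the spread between mice is unknown, and no difference below has a replicate check or a p-value. A single liver weighed more in the butyrate pool of 4 mice.

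Bile acids are made from cholesterol in hepatocytes. The classical route starts with the 7-alpha-hydroxylase Cyp7a1, its rate-limiting step, and Cyp8b1 then adds the 12-alpha-hydroxyl group that sets the share of cholic acid. An alternative route starts with the mitochondrial sterol side-chain hydroxylase Cyp27a1 and goes on with the oxysterol 7-alpha-hydroxylase Cyp7b1. Slc27a5 and Baat join the finished acids to taurine or glycine, Abcb11 exports them into bile and Slc10a1 takes them back up from the portal blood. The receptor Nr1h4, known as FXR, senses bile acids and induces Nr0b2, known as SHP, which lowers transcription of Cyp7a1 and Cyp8b1 through the receptors LRH-1 (Nr5a2) and HNF4-alpha (Hnf4a).

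Promoter windows from RefSeq (build GRCm38.p6) were found for 6 of the 10 genes. Cyp7a1, Cyp7b1, Baat and Slc27a5 had no window and were not searched. The 250 bases upstream of the transcription start are shown for the 12-alpha-hydroxylase, whose pools spread widest, for Nr0b2, which ran the other way, and for the exporter Abcb11, a textbook FXR target. Capitals mark matches to the motifs searched.
Cyp8b1, chr9:121916306-121916555, minus strand: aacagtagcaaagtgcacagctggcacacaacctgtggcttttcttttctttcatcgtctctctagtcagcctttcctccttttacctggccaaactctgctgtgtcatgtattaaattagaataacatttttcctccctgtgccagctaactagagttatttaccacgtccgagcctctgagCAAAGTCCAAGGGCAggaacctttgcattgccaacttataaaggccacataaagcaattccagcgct
Nr0b2, chr4:133553126-133553375, plus strand: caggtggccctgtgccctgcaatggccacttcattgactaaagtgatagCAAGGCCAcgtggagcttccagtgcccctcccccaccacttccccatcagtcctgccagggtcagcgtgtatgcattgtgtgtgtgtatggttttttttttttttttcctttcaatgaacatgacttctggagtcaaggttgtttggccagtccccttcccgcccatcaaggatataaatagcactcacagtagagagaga
Abcb11, chr2:69342617-69342866, minus strand: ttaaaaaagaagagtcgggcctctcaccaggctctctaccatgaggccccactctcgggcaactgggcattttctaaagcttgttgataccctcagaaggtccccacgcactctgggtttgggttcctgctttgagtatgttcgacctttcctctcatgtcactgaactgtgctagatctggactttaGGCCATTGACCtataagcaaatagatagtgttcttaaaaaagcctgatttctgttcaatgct
In Cyp8b1 the capitals are an HNF4 element, CAAAGTCCA, 67 to 59 bases upstream of the start, that overlaps an LRH-1 element, CAAGGNCA, at 60 to 53 bases. In Nr0b2 they are an LRH-1 element 201 to 194 bases upstream. In Abcb11 they are an inverted repeat of GGNCA with 1 spacer base (GGNCANTGNCC), the arrangement FXR binds, 62 to 52 bases upstream. Both strands were searched. Of 32851 such windows in the table, 0.384% held the HNF4 element, 5.53% the LRH-1 element and 0.575% this inverted repeat. The stricter inverted repeat of AGGTCA (AGGTCANTGACCT), held by 0.00609% of all windows, was in 0 of the 7 windows found for the 6 genes. The motif letters were settled with these sequences in view, and a match describes the letters only.

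With acetate, the 2 enzymes that set the rate and the composition of classical bile acid synthesis were lower than in the control pool by about the same factor. Cyp7a1 stood at 10.34 with acetate, 10.80 with propionate and 11.07 with butyrate, against 10.99 in control (log2 levels). The acetate pool was the lowest for this gene, and the butyrate and control pools were close together at the top. That made Cyp7a1 1.56-fold lower with acetate (log2 ratio -0.65), rank 37 from the lowest of the 9410 genes tested. Cyp8b1 stood at 9.06 with acetate, 9.70 with propionate and 10.11 with butyrate, against 9.69 in control. Here the propionate pool lay beside control, the acetate pool below and the butyrate pool above it. Cyp8b1 was 1.54-fold lower with acetate (log2 ratio -0.63), rank 40 from the lowest.

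These 2 were the members past 1.5-fold, the size used as a call, in the acetate comparison. Of all genes tested, 0.51% were that much lower with acetate, and among the 3548 genes with mean levels at or above that of Nr0b2, the member with the lowest value, 0.536% were. No member was 1.5-fold higher, against 0.627% of the genes tested. In all, 8 of the 10 members lay below control with acetate, as did 5061 of the 9410 genes tested. The members' median log2 ratio was -0.060, against -0.011 over all genes tested.

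**Figure D1:**
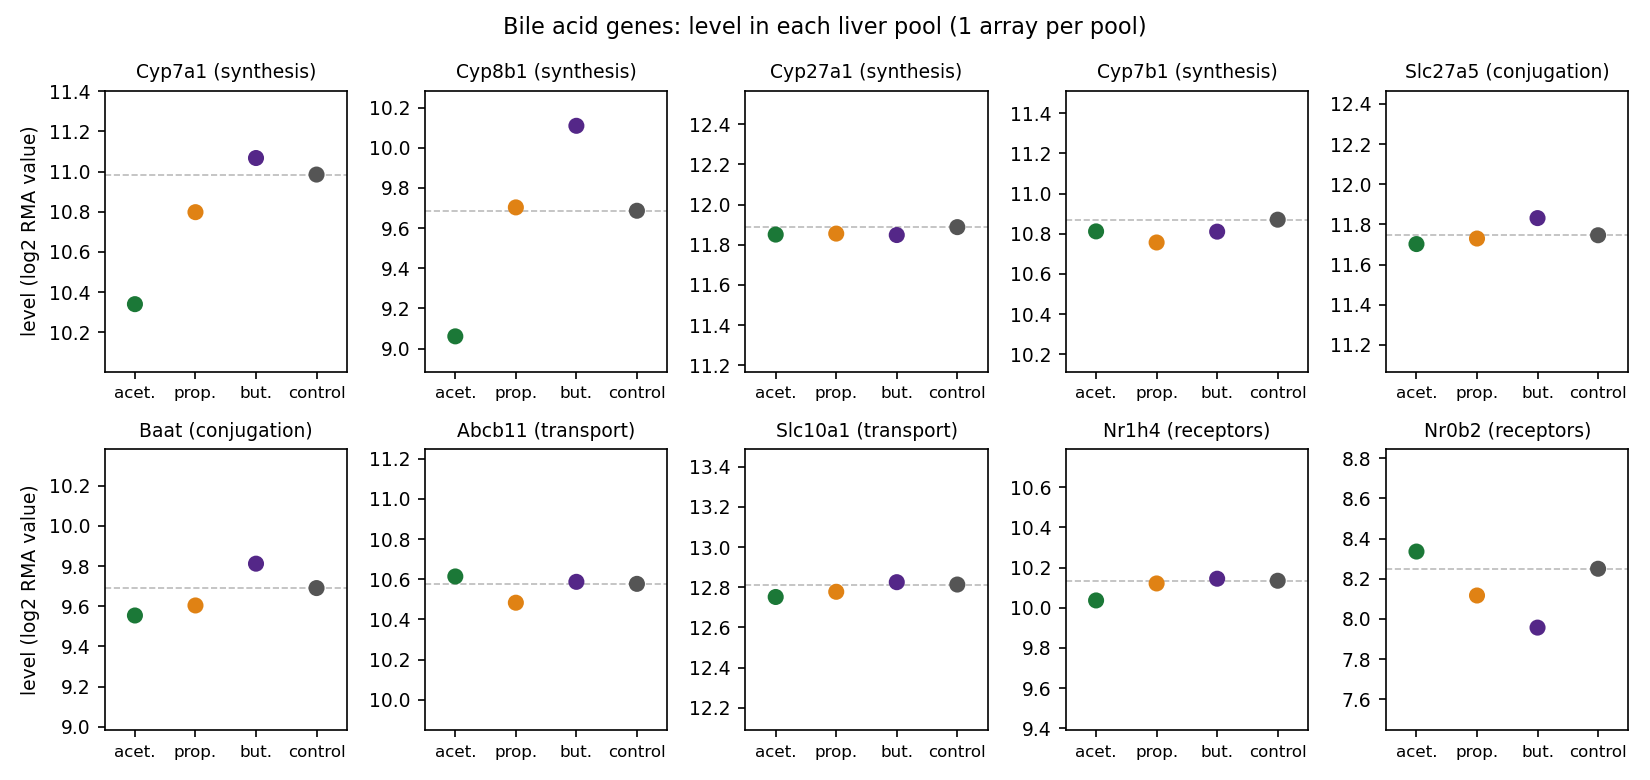
Log2 level (vertical axis, the same span in every panel) of each of the 10 bile acid genes in the acetate, propionate, butyrate and control pools; each point is 1 array and the dashed line is the control level. Cyp7a1 and Cyp8b1 are low with acetate, Cyp8b1 is high with butyrate, and the other members lie within a range of 0.38 log2 units.

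The alternative route did not share that difference. Cyp27a1 stood at 11.85 with acetate, 11.86 with propionate and 11.85 with butyrate, against 11.89 in control. Its 4 pools spanned 0.04 log2 units, the narrowest range among the members. Cyp7b1 stood at 10.81 with acetate, 10.76 with propionate and 10.81 with butyrate, against 10.87 in control. All 3 acid pools were below control for both genes, by at most 0.11 log2 units. With arrays centred on their medians, Cyp27a1 with propionate was at 0.0033.

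Conjugation genes differed little between pools. Baat, the enzyme that transfers taurine or glycine, stood at 9.55 with acetate, 9.60 with propionate and 9.81 with butyrate, against 9.69 in control. Its log2 ratios to control were -0.14, -0.09 and 0.12 with acetate, propionate and butyrate. Slc27a5, the ligase that forms the bile acid CoA ester, stood at 11.70 with acetate, 11.73 with propionate and 11.83 with butyrate, against 11.75 in control. Both genes were slightly below control with acetate and propionate and slightly above with butyrate, all within 1.2-fold, where 90.1%, 89.8% and 91.4% of the genes tested lay with acetate, propionate and butyrate. With arrays centred on their medians, Slc27a5 was above control with propionate (0.019).

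The transporters were nearly level. The canalicular exporter Abcb11 stood at 10.61 with acetate, 10.48 with propionate and 10.59 with butyrate, against 10.58 in control, a range of 0.13 log2 units. The uptake carrier Slc10a1 stood at 12.75 with acetate, 12.78 with propionate and 12.83 with butyrate, against 12.81 in control, a range of 0.07.

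Of the receptors, Nr1h4 stood at 10.04 with acetate, 10.12 with propionate and 10.14 with butyrate, against 10.13 in control. The acetate pool was the lowest for this gene, 0.08 log2 units below the propionate pool. Nr0b2, the repressor induced by Nr1h4, stood at 8.34 with acetate, 8.12 with propionate and 7.96 with butyrate, against 8.25 in control. It was 1.23-fold lower with butyrate (log2 ratio -0.29), rank 257 from the lowest of 9410, and 1.06-fold higher with acetate. Neither passed 1.5-fold.

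With propionate no member passed 1.5-fold, against 1.11% of the genes tested in either direction. All 10 members lay within 1.2-fold of control. The largest ratio was that of Cyp7a1 (-0.19), and Cyp8b1 was at 0.02. The median was -0.061, against -0.034 over all genes tested, and 9 of 10 members were below control, as were 5718 of the 9410 genes tested (60.8%). With arrays centred on their medians these were 6 of 10 members and 49.4% of genes. They were 8 of 10 members with cyclic loess (52.4% of genes) and 8 with quantile normalization (51.9%). The size of the lean toward lower values thus depended on the scaling.

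With butyrate no member passed 1.5-fold either, against 1.12% of the genes tested. Cyp8b1 was 1.34-fold higher than control (log2 ratio 0.42), rank 168 from the highest of 9410, and Cyp7a1 was at 0.08. Together with Nr0b2, Cyp8b1 was outside 1.2-fold, as were 8.6% of the genes tested. The median was 0.011, against -0.0036 over all genes tested. Above control were 7 of 10 members, as were 4579 of the 9410 genes tested, but 6 members with cyclic loess and 5 with quantile normalization. Of the genes tested, 51.5% lay below control with cyclic loess and 52.5% with quantile normalization. The 3 comparisons share the control array, so they are not independent of one another.

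**Figure D2:**
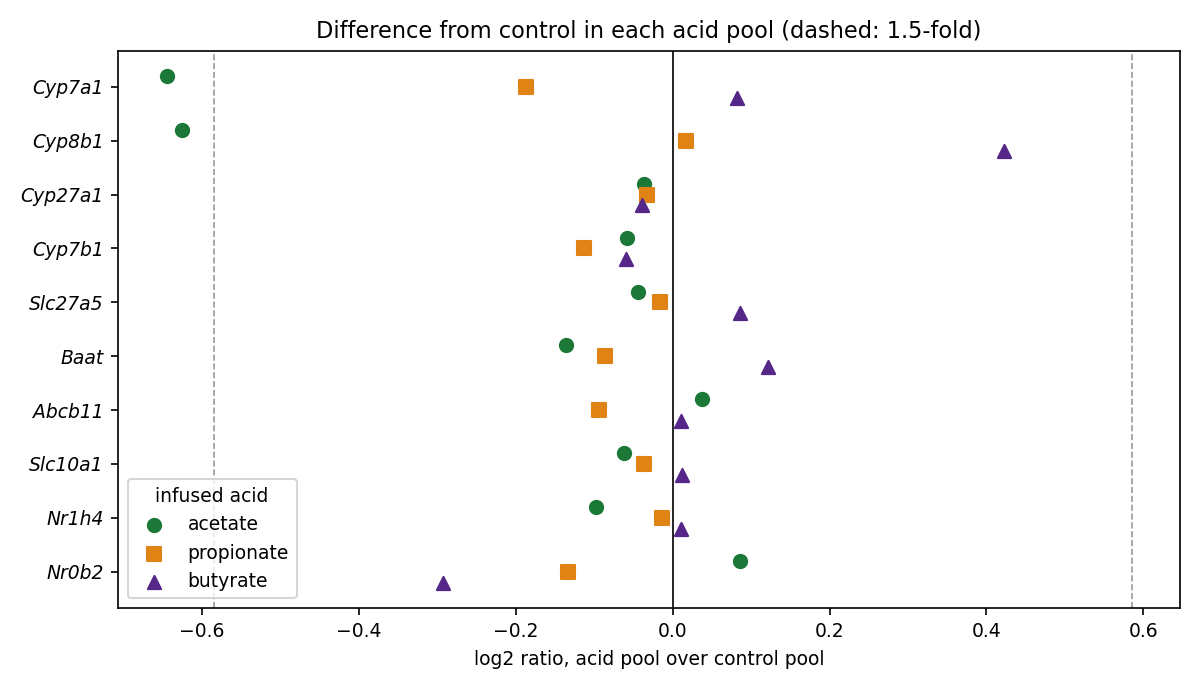
Log2 ratio of each acid pool over the control pool (horizontal axis) for the 10 genes; circles are acetate, squares propionate and triangles butyrate, and dashed lines mark 1.5-fold. Cyp7a1 (-0.65) and Cyp8b1 (-0.63) with acetate are the points beyond a dashed line.

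**Figure D3:**
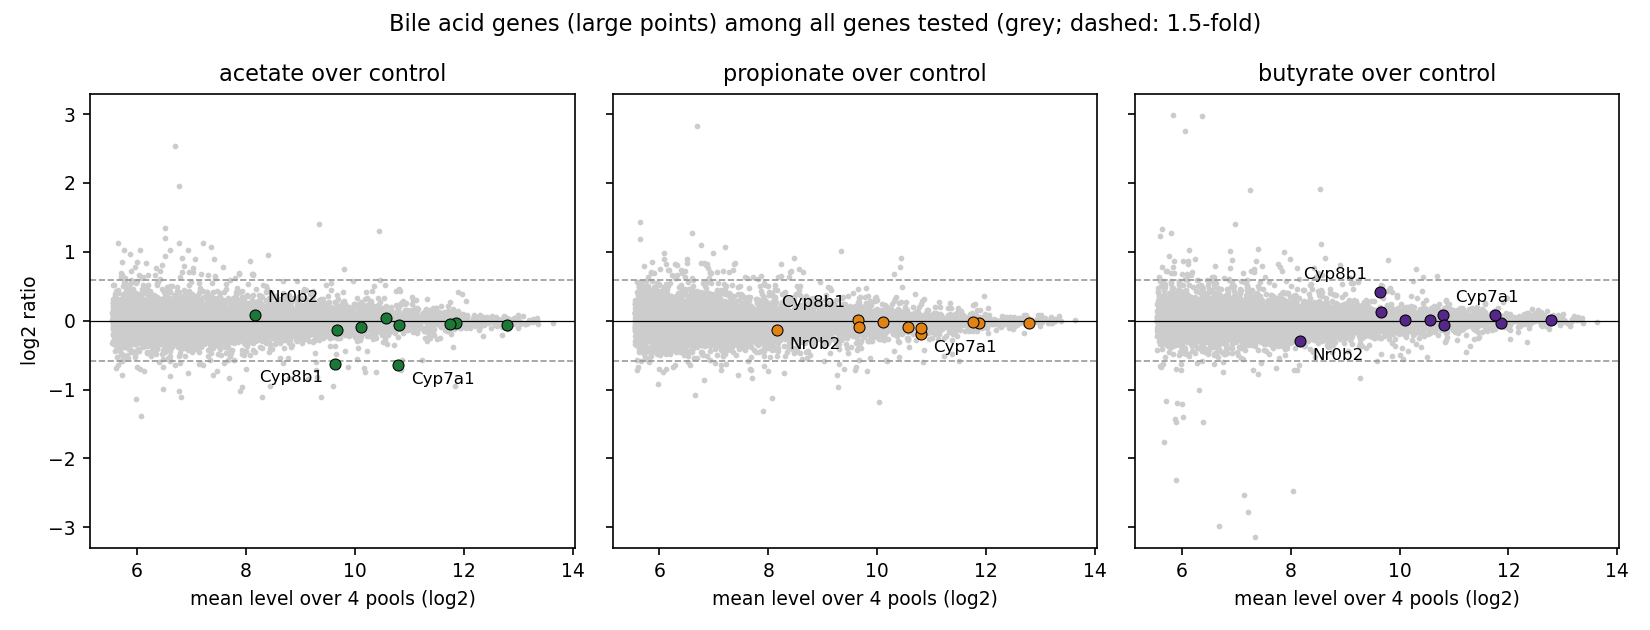
Log2 ratio over control (vertical axis) against the mean level over the 4 pools (horizontal axis, log2) for the 9410 genes tested (grey) and the 10 bile acid genes (large points), 1 panel per acid. Ratios spread less at high levels, and Cyp7a1 and Cyp8b1 lie at the lower edge of the cloud with acetate.

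The acids differ in the length of their carbon chain, and all 3 were infused equally in moles and in time, so their pools were set against one another in 3 pairs. The widest separation was between butyrate and acetate. Cyp8b1 was 2.07-fold higher with butyrate than with acetate (log2 ratio 1.05, rank 16 from the highest), and Cyp7a1 1.66-fold (0.73, rank 54). These 2 members passed 1.5-fold, as did 1.05% of the genes tested in that direction. Nr0b2 was lower with butyrate than with acetate (log2 ratio -0.38), and Baat was higher (0.26). Cyp27a1 and Cyp7b1 were at -0.0023 and -0.0013.

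Between propionate and acetate, Cyp8b1 and Cyp7a1 had the largest ratios among the members. Cyp8b1 was 1.56-fold higher with propionate than with acetate (log2 ratio 0.64, rank 29 from the highest), and it alone of the members passed 1.5-fold, as did 0.414% of the genes tested. Cyp7a1 was 1.37-fold higher (0.46, rank 78), and the other 8 members lay within 1.2-fold. Between butyrate and propionate no member passed 1.5-fold, against 0.956% of the genes tested in either direction. The largest ratios were those of Cyp8b1 (0.41), Cyp7a1 (0.27) and Baat (0.21). With 1 pool per acid no interval can be given for any of these differences, so nothing here shows that a pair of acids acted alike on a gene.

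Most members ranked the pools in one way. In 6 of the 10, namely Cyp7a1, Cyp8b1, Slc27a5, Baat, Slc10a1 and Nr1h4, the acetate pool was the lowest and the butyrate pool the highest. That order was seen in 10.9% of the genes tested. For Slc10a1 and Nr1h4 the 4 pools spanned only 0.07 and 0.11 log2 units: Slc10a1 lost it with cyclic loess and with quantile normalization, Nr1h4 lost it when arrays were centred on their medians, and 5 of 10 remained in each case. Nr0b2 had the opposite order, with butyrate lowest and acetate highest, as 10.5% of the genes tested did, and kept it under all 3 normalizations. This count was made after the values had been seen.

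The genes whose pools ran most like those of Cyp7a1, by root mean square difference of centred log2 levels over the 4 pools, were Gm10319 (0.032), the homeobox gene Cux2 (0.057) and Zfp975 (0.064). Levels of Cux2 and Zfp975 were near the floor, and below it with acetate (5.33 and 5.24). For Cyp8b1 the most similar genes were the acute-phase genes Saa3 (0.072) and Orm3 (0.095), and the cytokine-induced Tnfaip2 (0.11). Saa3 stood at 7.23 with acetate, 7.77 with propionate and 8.16 with butyrate, against 7.65 in control. Orm3, whose probes may also read its close paralogs, stood at 7.07, 7.67 and 8.14 in the same acid pools, against 7.90 in control. Cyp7a1 and Cyp8b1 differed from each other by 0.14. A likeness over 4 pools describes these arrays only.

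Other enzymes of bile acid synthesis gave no call. Log2 ratios to control are listed for acetate, propionate and butyrate in that order. Of 14 listed genes 13 were measured, and 0 passed 1.5-fold with any acid, where 1.14%, 1.11% and 1.12% of the genes tested passed in either direction with acetate, propionate and butyrate. A count of 0 in a list this short is near that share. The medians were 0.028, 0.0067 and 0.020 for the same acids. The oxysterol 7-alpha-hydroxylase Cyp39a1 was at 0.22, 0.24 and 0.02. The hydroxysteroid dehydrogenase Hsd17b6 was at 0.43, 0.12 and -0.07, and Akr1c14 at 0.22, 0.09 and -0.01. Cyp46a1, a cholesterol hydroxylase best known from brain, was below the floor in all 4 pools and at -0.20, -0.12 and -0.05. Cyp2c70, which makes muricholic acids in mice, was within 0.10 log2 units of control with each acid.

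Of the genes tested, 1.14%, 1.11% and 1.12% passed 1.5-fold in either direction with acetate, propionate and butyrate. Among 17 further transport genes, 1 did, the drug exporter Abcb1a with acetate. Its level was 5.77 with acetate, 5.22 with propionate and 5.57 with butyrate, against 5.10 in control, and its mean lay below the floor. The medians were 0.067, -0.032 and 0.067 for acetate, propionate and butyrate. Slco1a4, a sinusoidal uptake carrier, was at -0.20, -0.45 and -0.25, below control in all 3 acid pools. Ephx1, the microsomal epoxide hydrolase, was at 0.34, 0.27 and 0.07. Slc10a2, the sodium-dependent carrier best known from ileum, was at 0.11, -0.10 and -0.28, and the basolateral exporter subunit Slc51a, below the floor in all pools, at 0.0022, 0.24 and 0.27.

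Of the listed regulators 17 of 20 were measured, and 0 passed 1.5-fold, again near the share of all genes tested (1.14%, 1.11% and 1.12%), with medians of -0.0041, -0.045 and -0.024 for acetate, propionate and butyrate. Nr5a2 was at -0.0041, -0.05 and 0.05, and Hnf4a at -0.01, -0.01 and -0.16. These are transcript levels, and receptor activity was not measured. The part of Nr0b2 and these receptors in the Cyp7a1 and Cyp8b1 values was not tested. The coactivator Ppargc1a was 1.42-fold higher with acetate (0.51, and 0.13 and 0.22 with propionate and butyrate). Prox1, a corepressor of these receptors, was below control in all 3 acid pools (-0.27, -0.21 and -0.14), and so was Foxa2 (-0.21, -0.26 and -0.28). Vdr, below the floor in all pools, was at 0.53 with butyrate. Fgf15, the intestinal hormone that lowers Cyp7a1, was below the floor in all 4 liver pools, between 4.31 and 4.66, and its receptor Fgfr4 was at -0.03, -0.19 and -0.04.

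Of 10 other genes known as FXR targets 9 were measured and 0 passed 1.5-fold, near the share of all genes tested (1.14%, 1.11% and 1.12%), and their medians were 0.071, 0.013 and 0.023 for acetate, propionate and butyrate. Osgin1 was at 0.12, 0.23 and 0.02, Mafg, which lowers Cyp8b1 transcription, at 0.07, -0.14 and -0.15, and the phospholipid exporter Abcb4 at 0.14, 0.10 and 0.07. Slc51b, below the floor in all pools, was at -0.07, -0.10 and 0.15. For sulfation and hydroxylation 3 of 5 genes were measured and 0 passed, again near the share of all genes tested. Cyp3a11 was at 0.35, 0.21 and -0.28, Sult2a8 at 0.06, -0.05 and 0.18, and Papss2 at most 0.04 from control.

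**Figure D4:**
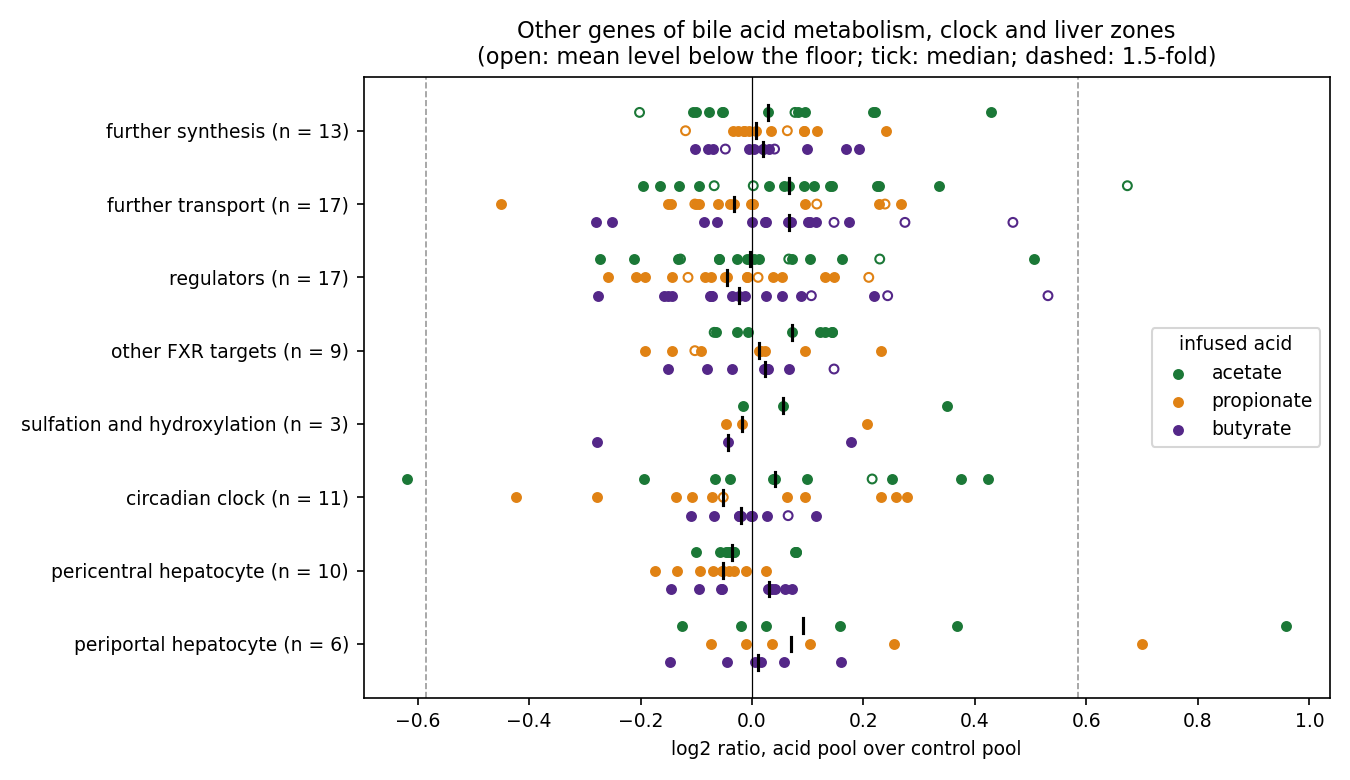
Log2 ratio of each acid pool over control (horizontal axis) for each gene of the further bile acid lists, the clock list and the markers of both liver zones; ticks are medians and open circles are genes with mean levels below the floor. Most genes lie inside the dashed lines at 1.5-fold; Abcb1a, Per3 and Aldh1b1 lie outside with acetate, and Aldh1b1 with propionate.

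The liver's defining markers were at the top of the scale in every pool. The 5 measured hepatocyte markers had mean levels between 12.5 and 13.4, and their ratios to control stayed within 0.07 log2 units with each acid. Pericentral hepatocyte markers had medians of -0.036, -0.053 and 0.030, with 0 of 10 past 1.5-fold. That is near the share of the genes tested (1.14%, 1.11% and 1.12% with acetate, propionate and butyrate). Periportal markers had medians of 0.092, 0.070 and 0.010 over 6 measured genes, with the largest ratios for Aldh1b1 (0.96, 0.70 and 0.16) and Cdh1 (0.37, 0.26 and -0.15). Within 1.2-fold of control lay 4, 5 and 6 of the 6 with acetate, propionate and butyrate. With acetate 4 of the 6 were above control, as were 4348 of the 9410 genes tested. Hsd17b13 was at 0.16, 0.10 and 0.02. With acetate Hal was at -0.13, Pck1 at -0.02 and Cyp2f2 at 0.03. Transcription of Cyp7a1 follows the clock. Of 11 measured clock genes 1 passed 1.5-fold with acetate, against 1.14% of the genes tested in either direction. It was Per3 at -0.62 (-0.42 with propionate and -0.07 with butyrate). Arntl was at 0.42, 0.26 and 0.11, Nfil3 at 0.38, 0.28 and 0.00011, and Per2 at -0.19, -0.28 and -0.0024. Within 1.2-fold of control lay 8, 8 and 11 of the 11 clock genes with acetate, propionate and butyrate. The shares of the genes tested were 90.1%, 89.8% and 91.4%. Nr1d1 and Dbp were listed but not measured. The part of the clock in the Cyp7a1 and Cyp8b1 values was not tested.

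Markers of other tissues and cells differed between the pools as well. All 8 pancreatic acinar markers were lower than control with every acid, by medians of -0.96, -0.68 and -0.36 for acetate, propionate and butyrate, led with acetate by Pnliprp2 (-1.12), Sycn (-1.11), Cela1 (-1.10) and Pnliprp1 (-0.97). Below control were 53.8%, 60.8% and 51.3% of the genes tested with these acids. At least 1.5-fold lower were 7, 6 and 0 of the 8 markers, against 48, 38 and 34 of the 9410 genes tested. Their summed linear level was 5503 with acetate, 6193 with propionate and 7137 with butyrate, against 9394 in control. The 8 skeletal muscle markers summed to 1441 with acetate, 1734 with propionate and 265.3 with butyrate, against 1523 in control. All 8 were at least 1.5-fold lower with butyrate, as were 34 of the 9410 genes tested. They were led by Myl1 (-3.15), Mb (-2.98), Atp2a1 (-2.78) and Tnnt3 (-2.53), whose levels with butyrate lay below the floor. The 8 Kupffer cell markers summed to 3597 with acetate, 4448 with propionate and 5395 with butyrate, against 3804 in control. The sum had the same order of the 4 pools as Cyp8b1, but not every marker did. Cd68, Vsig4 and C1qa were above control with acetate (0.27, 0.01 and 0.08), and Clec4f was below control with propionate (-0.10). The largest ratios with butyrate were those of Marco (1.40), Adgre1 (0.76), Cd68 (0.76) and Timd4 (0.70). Of 9 intestinal epithelium markers, 2 were at least 1.5-fold higher with butyrate, where 1.12% of the genes tested passed in either direction. They were Lypd8 (2.97) and Muc2, which stood at 8.11 with butyrate, against 5.13 in control. That control level lay below the floor, so the size of the Muc2 ratio is not exact. Within 1.2-fold of control with butyrate were 4 of the 9 markers. The ileal bile acid binding protein Fabp6 lay between 2.76 and 2.97, below the floor in all pools. Of 7 measured cholangiocyte markers 1 passed 1.5-fold, Epcam with butyrate (0.64), against 1.12% of the genes tested in either direction. The control level of Epcam lay below the floor. The part of these cells in the bile acid values was not tested, and in pooled tissue fewer cells of a type and less RNA per cell cannot be told apart.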

How the data were processed

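Pooled liver RNA was hybridized to 1 array per infusion group. The values deposited are log2 expression values per probe set, made with RMA by the authors, per the submitters' processing notes. For the RMA version, its settings and the array design's build, nothing is stated in the labels. RMA makes the arrays' distributions alike, so a shift of all genes in 1 pool cannot be seen. Per the labels, 500 ng of RNA per mouse was pooled, from livers with an integrity number above 8. Array medians ran from 5.11 to 5.12, and Pearson's r between arrays over genes from 0.990 to 0.996.

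Gene symbols came from the platform annotation in GEO. Of 35556 probe sets, 21218 had 1 symbol, 1881 several and 12457 none. Names were checked by Entrez ID against RefSeq (GRCm38.p6), where 21185 matched. Probe sets of a symbol were averaged. Log2 ratios of 2 arrays were taken for 6 comparisons and called at 1.5-fold (0.58 on the log2 scale); with 1 array per group no test was possible, and the number of arrays limits precision. Python 3.11.15, numpy 2.4.6, pandas 2.3.3 and limma 3.58.1 (normalization alternatives) were used, and the calling step was tested on simulated data. The 10 members and all lists were chosen with earlier results of these data known. All members are named; of the further bile acid lists, genes past 1.5-fold and up to 4 more by absolute ratio; of the marker and clock lists, up to 4 genes by absolute ratio; and for members spanning 1.5-fold, the 3 most similar genes. A few more are named for their role, after their values were seen.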

Additional observations from a re-analysis of the deposited data

How the results depend on the processing

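The acetate calls of Cyp7a1 and Cyp8b1 were the same under cyclic loess, quantile normalization, median centring and the mean of the other 3 pools as the comparator: log2 ratios ran from -0.65 to -0.61 for Cyp7a1 and from -0.77 to -0.61 for Cyp8b1. Of 336 values recomputed, 324 stayed within the limits used and 12 moved. The limits were 1 SD of log2 ratios over the genes tested (0.17 to 0.19, in place of a replicate spread) or 1.5 times for counts. That SD is wider than most members' ratios, so few of these could move. A change of sign was looked for only in ratios past 1.5-fold, Cyp7a1 and Cyp8b1 with acetate, and 0 changed. Smaller ratios did change sign, as those of Slc27a5 and Cyp27a1 with propionate. Other summaries of probe sets (median, brightest, several symbols included) could not change a member, each having 1 probe set and 0 with several symbols. The 324 include 45 values under each of these summaries, which were fixed in advance. With the average of the other 3 pools as comparator, the acetate value included, 1 member (Cyp8b1, 0.63) passed 1.5-fold with butyrate in place of 0, and Cyp7a1 was at 0.36 with butyrate and at 0.00041 with propionate. With 2-fold as the call, 0 members were lower with acetate than control, 0 were higher with propionate than acetate and 1 was higher with butyrate than acetate. No share of all genes was taken at 2-fold. With 1.2-fold, 1 was higher and 1 lower with butyrate than control, and 2 were higher with propionate than acetate. With butyrate 1 was lower and 2 were higher than with acetate, and 2 were higher than with propionate. Within 1.2-fold lay 91.4% of the genes tested for butyrate over control and 93.1% for propionate over acetate. The shares were 86.5% for butyrate over acetate and 89.3% for butyrate over propionate. The members' medians stayed between -0.070 and -0.045 with acetate, -0.062 and -0.025 with propionate, and -0.00015 and 0.046 with butyrate, so the sign of the last is not settled. No paired analysis was possible because each group has 1 array, and for the same reason no replicate could be left out.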
